A study of Mus musculus with 3 samples.

Results

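Spry1, Spry2, Spry4, Spred1, Spred2, Dusp6, Il17rd, Etv4 and Etv5 are 9 targets and feedback regulators of fibroblast growth factor (FGF) signalling. They were chosen by symbol, and all 9 were found among the 31054 features of each of the 3 count matrices. The data are single-cell RNA sequencing of mouse forelimb buds taken at embryonic day 9.5. The control library came from Esco2fl/fl embryos, which are homozygous for a floxed allele of Esco2, the gene of a cohesin acetyltransferase that sister chromatid cohesion depends on. The libraries mutant 1 and mutant 2 came from Esco2fl/fl;Prrx1-CreTg/0 embryos, which carry in addition a Cre recombinase driven by Prrx1 regulatory sequence, a driver known for its activity in limb bud mesenchyme. The floxed allele is thus shared by all 3 libraries, and the transgene separates the groups. The series design names 3 replicates per genotype, each pooled from 3 samples of 2 limb buds, 6 limb buds in all, with 2 male samples and 1 female sample. Of these, 1 control and 2 mutant libraries were analysed here. Whether the pools came from separate litters is not stated, so a p-value measures only how these libraries differ.

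FGFs bind receptor tyrosine kinases at the cell surface, which signal through Ras and the ERK kinases to ETS-domain transcription factors. The pathway switches on its own inhibitors: Sprouty and Spred proteins act at the level of Ras and Raf, the phosphatase Dusp6 removes the activating phosphates of ERK in the cytoplasm, and the membrane protein Il17rd (also called Sef) binds the receptors and holds back ERK signalling. Etv4 and Etv5 are the ETS factors of the set. In the early limb bud, Fgf8 and other FGFs of the apical ectodermal ridge act on the mesenchyme below it, and Fgf10 of the mesenchyme acts back on the ectoderm. Lhx2 and Lhx9 are LIM-homeodomain factors of the distal mesenchyme, next to the ridge, and their expression there is known to depend on ridge FGFs. Their summed level was used here to order the mesenchyme cells.

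On GRCm38, Spry1 and Spry2 lie on chromosome 3 (Spry1, 37639947 to 37644598, plus strand) and chromosome 14 (Spry2, 105891947 to 105896819, minus strand). Spred1 lies on chromosome 2 (117121374 to 117182279, plus strand) and Spred2 on chromosome 11 (19924375 to 20024026, plus strand). Dusp6 lies on chromosome 10 (99263231 to 99267489, plus strand) and Il17rd on chromosome 14 (27038941 to 27107286, plus strand). Etv4 lies on chromosome 11 (101769742 to 101785371, minus strand) and Etv5 on chromosome 16 (22381309 to 22439719, minus strand). All 9 members are protein-coding. Annotated genes overlap Spry1 (Gm42922) and Spry4 (Gm27369 and Gm27804) on the opposite strand. The sources used here do not give the strand setting of the counting, so reads of those partners cannot be told apart from theirs.

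Upstream windows are shown because most members rose together across the mesenchyme, as described below. A search on both strands for the ETS-type motifs CGGAAG and AGGAAG was run in the 250 bases upstream of each RefSeq start (RefSeq, GRCm38.p6), for the 7 members that have a window (8 windows, since Etv5 has 2). Of the 8 windows, 3 held a match (37.5%), against 39.2% of all 32851 such windows. The motifs share the letters GGAAG, and matches are a description, not sites. Capitals mark the matches, which read CTTCCG or CTTCCT where the motif lies on the other strand. The windows below are chr10:99262981-99263230 (plus strand) for Dusp6, chr2:117120821-117121070 (plus strand) for Spred1, chr3:37639697-37639946 (plus strand) for Spry1 and chr14:105896820-105897069 (minus strand) for Spry2.
Dusp6: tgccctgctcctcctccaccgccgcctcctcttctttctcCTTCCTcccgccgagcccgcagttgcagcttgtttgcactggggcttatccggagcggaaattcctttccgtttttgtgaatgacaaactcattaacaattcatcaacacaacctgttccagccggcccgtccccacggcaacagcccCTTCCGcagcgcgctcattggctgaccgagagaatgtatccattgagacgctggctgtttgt
Spred1: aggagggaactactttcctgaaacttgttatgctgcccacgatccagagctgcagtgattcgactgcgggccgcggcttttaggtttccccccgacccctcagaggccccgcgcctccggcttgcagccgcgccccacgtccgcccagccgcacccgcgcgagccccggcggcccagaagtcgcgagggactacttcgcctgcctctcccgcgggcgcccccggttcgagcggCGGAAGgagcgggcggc
Spry1: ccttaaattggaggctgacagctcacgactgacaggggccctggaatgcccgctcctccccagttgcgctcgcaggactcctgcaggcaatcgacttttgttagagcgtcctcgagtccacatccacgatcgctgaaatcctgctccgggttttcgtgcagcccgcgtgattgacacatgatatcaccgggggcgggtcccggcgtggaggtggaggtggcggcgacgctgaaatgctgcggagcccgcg
Spry2: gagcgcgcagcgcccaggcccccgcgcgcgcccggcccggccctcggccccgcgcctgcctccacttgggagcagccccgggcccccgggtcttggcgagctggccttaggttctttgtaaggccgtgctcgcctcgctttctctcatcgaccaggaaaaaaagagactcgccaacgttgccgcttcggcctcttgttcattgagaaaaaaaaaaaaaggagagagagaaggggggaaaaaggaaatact
Dusp6 held 1 match of each motif and Spred1 held 1 of CGGAAG. The windows of Spry1 and Spry2 held neither. The third member with a match was Spred2.

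Each matrix counts unique molecular identifiers (UMIs), which stand for captured RNA molecules. After filtering, 4054, 3596 and 4681 cells remained in control 1, mutant 1 and mutant 2, with median depths of 22877, 36245 and 41477 UMIs. Cells were placed in a class by a gate on marker genes, and no sort is stated. Limb mesenchyme, gated on Prrx1, Prrx2, Tbx5, Twist1, Pdgfra and Msx1, held 914, 1068 and 2026 cells, and surface ectoderm, gated on 8 epithelial genes such as Epcam and Trp63, held 283, 381 and 258. The labels call the cells mesenchymal limb buds, but endothelium (391 to 516 cells a library), primitive erythroid cells (413 to 606), flank and visceral mesoderm (130 to 178), coelomic epithelium (126 to 193), myogenic progenitors (37 to 382) and macrophages (17 to 39) were also present. Control 1 stood apart in its cells without a class, 36.0% of its cells against 16.9% and 14.4%, most of them shallow. Pairs of libraries shared 65 to 117 barcodes, of which 17 to 19 passed the filters. Esco2 itself stood at 32.8, 22.2 and 21.9 CPM in mesenchyme and was not called (log2 fold -0.57, SE 0.25, edgeR adjusted p = 0.664). CPM are UMIs of the gene per 1000000 UMIs of the class, for Esco2 here scaled by the TMM factors of the fit. The sources used here do not say which part the floxed allele removes, so whether these 3′ reads measure the deletion is not known. UMIs of the CRE feature numbered 0, 56 and 127 in mesenchyme (1.15 and 1.23 CPM in the mutants, without TMM factors), 0, 6 and 4 in flank mesoderm (0.989 and 0.796 CPM), 0, 7 and 2 in coelomic epithelium (1.11 and 0.266 CPM) and 0, 0 and 1 in ectoderm.

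The members were not spread evenly over the tissue. Surface ectoderm, myogenic progenitors and limb mesenchyme had the highest levels, and primitive erythroid cells had the lowest mean level of all 9. Levels are in CPM, scaled to all UMIs of the class in a library and given as mean ± SD over the 3 libraries whatever their genotype. The order of classes differed from gene to gene: ectoderm had the highest mean of 3 members, myogenic progenitors of 4 and mesenchyme of 2.

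Among the Sprouty genes, Spry2 was highest in ectoderm (52.4 ± 9.49 CPM, n = 3), where every library lay above every library of the next classes, myogenic progenitors (22.8 ± 8.54 CPM, n = 3) and mesenchyme (19.2 ± 2.33 CPM, n = 3), which overlapped each other. Spry1 was also highest in ectoderm (39.7 ± 14.8 CPM, n = 3), ahead of mesenchyme (19.4 ± 3.82 CPM, n = 3), and the ranges of these classes overlapped because mutant 1 stood at 23.3 CPM in ectoderm. In myogenic progenitors, by contrast, Spry1 was low, at 2.01 ± 0.456 CPM (n = 3), above its erythroid level alone in the order of means. Spry4 (GRCm38 chromosome 18, 38586247 to 38601415, minus strand) stepped down from 35.9 ± 0.776 CPM in myogenic progenitors through ectoderm and mesenchyme to 20.1 ± 2.91 CPM in endothelium, each class overlapping the next. Below them Spry4 dropped to 2.86 ± 2.56 CPM in coelomic epithelium and 2.21 ± 0.995 CPM in flank mesoderm (n = 3 each).

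The Spred genes stood clear above their erythroid level in all other classes. Spred1 ranged from 120.6 ± 17.3 CPM in mesenchyme to 68.5 ± 18.2 CPM in coelomic epithelium, with every class overlapping the next, and only erythroid cells stood clear below (5.56 ± 0.678 CPM, n = 3). Spred2 was highest in myogenic progenitors (217.5 ± 67.7 CPM, n = 3), overlapping ectoderm (173.6 ± 24.4 CPM), which overlapped mesenchyme (130.9 ± 15.1 CPM). Erythroid Spred2 was 12.1 ± 2.28 CPM.

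Dusp6 was highest in mesenchyme, at 90.1 ± 20.9 CPM (n = 3), with no overlap with endothelium (61.2 ± 1.20 CPM, n = 3). Ectoderm held only 23.8 ± 5.69 CPM of Dusp6. Il17rd was highest in myogenic progenitors (146.8 ± 43.7 CPM) and mesenchyme (144.3 ± 26.0 CPM), which overlapped, and both stood clear of ectoderm (52.6 ± 5.70 CPM). Etv4 and Etv5 had the same 3 classes at the top: Etv4 stood at 60.4 ± 1.41 CPM in myogenic progenitors and 60.2 ± 14.5 CPM in ectoderm, overlapping, with mesenchyme clear below (38.9 ± 3.66 CPM), and Etv5 stood at 62.0 ± 6.08 CPM in ectoderm, 54.2 ± 2.87 CPM in myogenic progenitors and 47.3 ± 5.59 CPM in mesenchyme, each overlapping the next. Control 1 had 37 myogenic cells, so its values there rest on few cells.

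**Figure D1:**
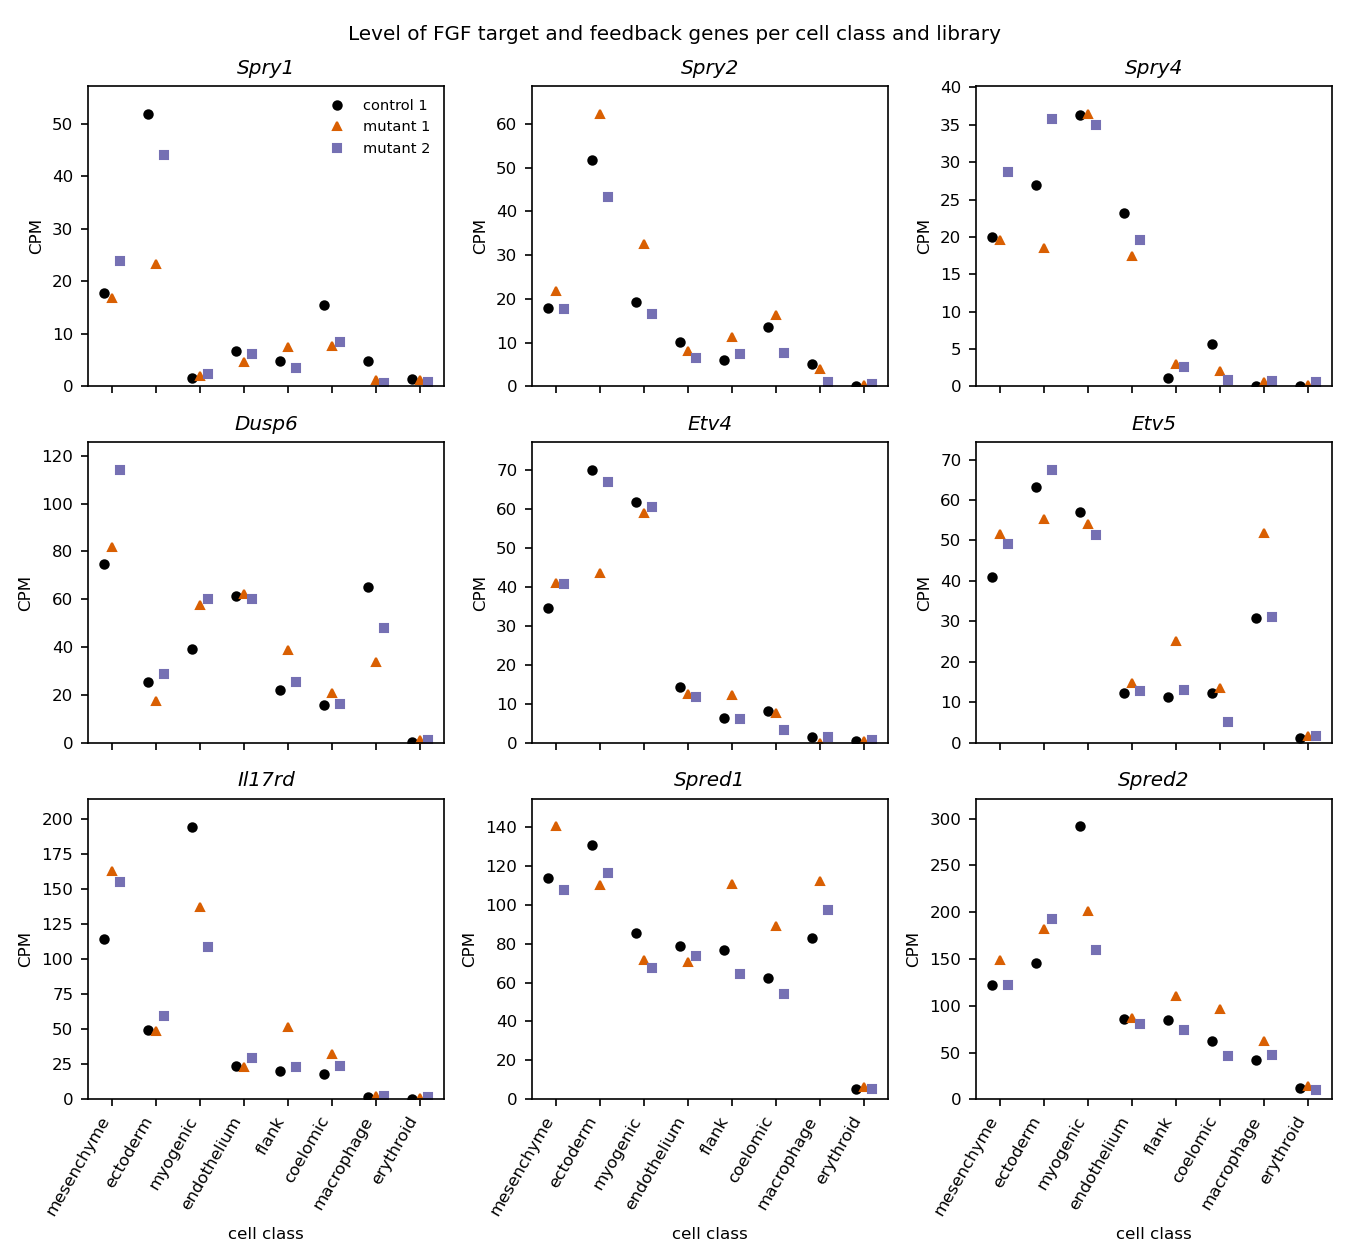
Level of each gene (y axis, CPM from 0) in 8 cell classes (x axis) in control 1 (circles), mutant 1 (triangles) and mutant 2 (squares). Dusp6 and Il17rd are higher in mesenchyme than in ectoderm in all 3 libraries, Spry2 is higher in ectoderm, and erythroid cells are near 0 except for Spred1 and Spred2.

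Differences from mesenchyme were tested with edgeR's quasi-likelihood test on UMIs summed per class and library, with a term for each library and Benjamini-Hochberg adjustment over all genes; a gene was called at an adjusted p under 0.05. In ectoderm, where 60.9% of all 10561 genes tested were called (29.2% higher and 31.7% lower), 4 members were called higher than in mesenchyme and 2 lower. The higher ones were Spry2 (log2 difference 1.32, SE 0.18, adjusted p = 5.03e-05), Spry1 (0.88, SE 0.24, adjusted p = 0.00605), Etv4 (0.51, adjusted p = 0.0479) and Spred2 (0.29, adjusted p = 0.0240). Dusp6 (-2.02, adjusted p = 1.49e-05) and Il17rd (-1.55, adjusted p = 0.000164) were lower. Without control 1, Spry2 alone was called higher, with Spry1 at 0.57 (adjusted p = 0.142), Etv4 at 0.29 (adjusted p = 0.355) and Spred2 at 0.36 (adjusted p = 0.0601). Etv4 was also not called by DESeq2 (adjusted p = 0.0645) or without mutant 2 (adjusted p = 0.105), and Spred2 was not without mutant 1 (adjusted p = 0.0581) or mutant 2 (adjusted p = 0.109), while Etv5 was called without mutant 1 (0.41, adjusted p = 0.0254).

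The other FGF genes were also divided between ectoderm and mesenchyme. Of 7 receptors and co-receptors 2 were called higher in ectoderm and 5 lower, with Fgfr2 at 1.16 and Fgfr1 at -1.01. Of 3 ligands 1 was higher, Fgf8 (8.87), and 2 were lower, Fgf10 (-6.69) among them. Of 22 relay genes 9 were higher and 3 lower, of 14 other negative regulators 4 and 6 (Dusp4 -0.64), and of 17 effectors and targets 5 and 9.

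Endothelium had 7 members called lower than mesenchyme, where 63.7% of genes were called in all and 31.7% lower. Differences among these ran from -2.32 for Il17rd to -0.47 for Spred2. Dusp6 (-0.37, 95% interval -0.86 to 0.11) and Spry4 (0.01, 95% interval -0.51 to 0.54) were not called there, though Dusp6 was with no scaling beyond the total (-0.53, adjusted p = 0.0481). All 9 members were called lower in erythroid cells, with a median of -4.55 (80.7% of genes called, 41.8% lower). All 9 were lower in flank mesoderm too (30.6% of genes called, 13.7% lower), with a median of -1.67 and Spry4 lowest at -3.51. Spred1 was not called there without control 1 (-0.53, adjusted p = 0.0650) or without mutant 2 (-0.47, adjusted p = 0.0934).

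Within the ectoderm, cells with at least 2 UMIs of Fgf8 per 10000 UMIs were taken as the apical ridge, which gave 85, 106 and 73 cells. Spry2 was higher in the ridge than in the rest of the ectoderm in every library. It stood at 63.7, 89.2 and 56.2 CPM in the ridge of control 1, mutant 1 and mutant 2, and at 48.0, 49.8 and 37.8 CPM in the other ectoderm, and the lowest ridge value lay above the highest value outside it. The log2 difference was 0.61 (SE 0.12, edgeR adjusted p = 0.00748). Spry2 was the 1 member of 9 called, where 9.64% of all genes were called.

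The other 8 members were not called, Spry1 among them. It stood at 49.2, 14.1 and 31.3 CPM in the ridge against 55.3, 26.8 and 46.5 CPM outside it, lower in each library, but the libraries overlapped (log2 -0.49, SE 0.15, edgeR adjusted p = 0.0754). Spred2 (-0.32, adjusted p = 0.0774), Spred1 (-0.28, adjusted p = 0.139) and Il17rd (0.29, adjusted p = 0.149) were not called either. The ridge of mutant 1 was low in several members: Spry4 stood at 6.18 CPM there against 32.2 and 23.8 CPM in the ridge of control 1 and mutant 2, and Dusp6 at 9.64 against 24.6 and 26.1 CPM. Neither was called between ridge and other ectoderm (adjusted p = 0.342 and 0.265). Of the other FGF genes, the ligand Fgf9 was higher in the ridge (log2 1.86, edgeR adjusted p = 0.000555), as was Fgf8, which defined it. Of 7 receptors and co-receptors Flrt3 was higher (0.38) and Gpc3 lower (-1.02), of 22 relay genes Rps6ka3 (1.00) and Gab2 (0.99) were higher, and of 14 other negative regulators Dusp9 was lower (-0.48). Of 12 effectors and targets, Bmp4 (2.54), Msx1 (1.07) and Phlda1 (0.60) were higher, and Mycn (-1.10) and Ccnd1 (-0.56) were lower. Of 6 genes of the p53 program tested there, 3 were also higher, and their part in the difference of Spry2 was not tested.

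Across the limb mesenchyme, 8 of 9 members rose with Lhx2 and Lhx9. Cells were ranked by the summed UMIs of these genes per 10000 UMIs and cut, over all libraries together, into 3 groups of equal size at 1.63 and 4.44, here called Lhx-low, Lhx-middle and Lhx-high. The Lhx-low group held 396, 399 and 541 cells and the Lhx-high group 223, 323 and 790 cells of control 1, mutant 1 and mutant 2, which is 24.4%, 30.2% and 39.0% of each library's mesenchyme in the Lhx-high group. Every member was higher in the Lhx-high group in every library, 27 of 27 gene and library pairs. Over all genes, 54.25% of the differences fitted over the 3 libraries were above 0. The pairs share libraries and cells, so their count is a description.

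Spry4, an inhibitor at the level of Ras and Raf, differed most. It stood at 11.4, 5.22 and 10.4 CPM in the Lhx-low cells of control 1, mutant 1 and mutant 2 and at 27.9, 31.4 and 42.2 CPM in the Lhx-high group. The groups did not overlap, and mutant 1 was lowest among the Lhx-low sums and mutant 2 highest among the Lhx-high. The log2 difference was 1.93 (SE 0.18, edgeR adjusted p = 1.69e-05). Spry1 rose from 13.5, 8.04 and 13.1 CPM to 24.3, 25.4 and 31.8 CPM (log2 1.25, SE 0.13, adjusted p = 4.22e-05). Spry2 rose from 14.8, 12.5 and 9.06 CPM to 23.8, 28.5 and 25.2 CPM (log2 1.13, SE 0.13, adjusted p = 0.000106). Neither gene overlapped between the groups, and in Spry2 mutant 2 was the lowest library of the Lhx-low sums.

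Il17rd, the receptor-binding inhibitor, rose in each library by a similar factor. It went from 67.1, 79.5 and 69.3 CPM to 173.2, 214.8 and 217.1 CPM (log2 1.49, SE 0.07, edgeR adjusted p = 1.18e-07). Dusp6, the ERK phosphatase, rose from 53.7, 39.8 and 65.5 CPM to 100.9, 117.5 and 143.3 CPM (log2 1.20, SE 0.10, adjusted p = 1.05e-05). The groups of either gene stood far apart, with mutant 2 highest among the Lhx-high cells of each.

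The ETS factors rose by less. Etv4 rose from 22.4, 28.5 and 28.9 CPM to 49.7, 48.0 and 48.5 CPM (log2 0.87, SE 0.09, edgeR adjusted p = 3.28e-05), and its Lhx-high level differed little between libraries. Etv5 rose from 30.8, 33.2 and 31.1 CPM to 52.98, 64.91 and 59.99 CPM (log2 0.90, SE 0.07, adjusted p = 4.02e-06). The Spred genes changed least: Spred2 rose from 104.9, 130.2 and 106.8 CPM to 147.4, 153.5 and 137.0 CPM (log2 0.36, SE 0.06, adjusted p = 0.00185). Spred1 stood at 113.8, 128.6 and 97.3 CPM and 117.9, 144.1 and 121.2 CPM, overlapping, and was not called (log2 0.18, SE 0.06, adjusted p = 0.0684), though it was in 5 of 19 alternatives: without control 1 (adjusted p = 0.0417), with no filter on low counts (0.0191), with a stricter gate (0.0480), with Lhx9 alone (0.0322) and between the outer 2 of 6 bins (0.00913).

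In all, 8 of 9 members were called higher and none lower, where 10.2% of all 10121 genes tested were called higher and 12.3% lower. The median log2 difference was 1.13 over the members and 0.017 over all genes. In 6 bins instead of 3, 122 of the 135 steps from a bin to the next were rises, and 16 of 27 gene and library series rose at every step. Such steps were not counted over all genes. Levels in the last bin were from 1.18 times (Spred1 in control 1) to 11.8 times (Spry4 in mutant 1) those in the first. Il17rd went from 44.5 to 193.0 CPM in control 1, from 55.1 to 227.3 CPM in mutant 1 and from 44.4 to 235.5 CPM in mutant 2. Etv4 rose mostly at the bottom, from 11.4 to 32.6 CPM between the first bins of control 1, and Dusp6 levelled off at the top in mutant 2, at 135.7, 142.4 and 141.9 CPM in the last 3 bins.

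**Figure D2:**
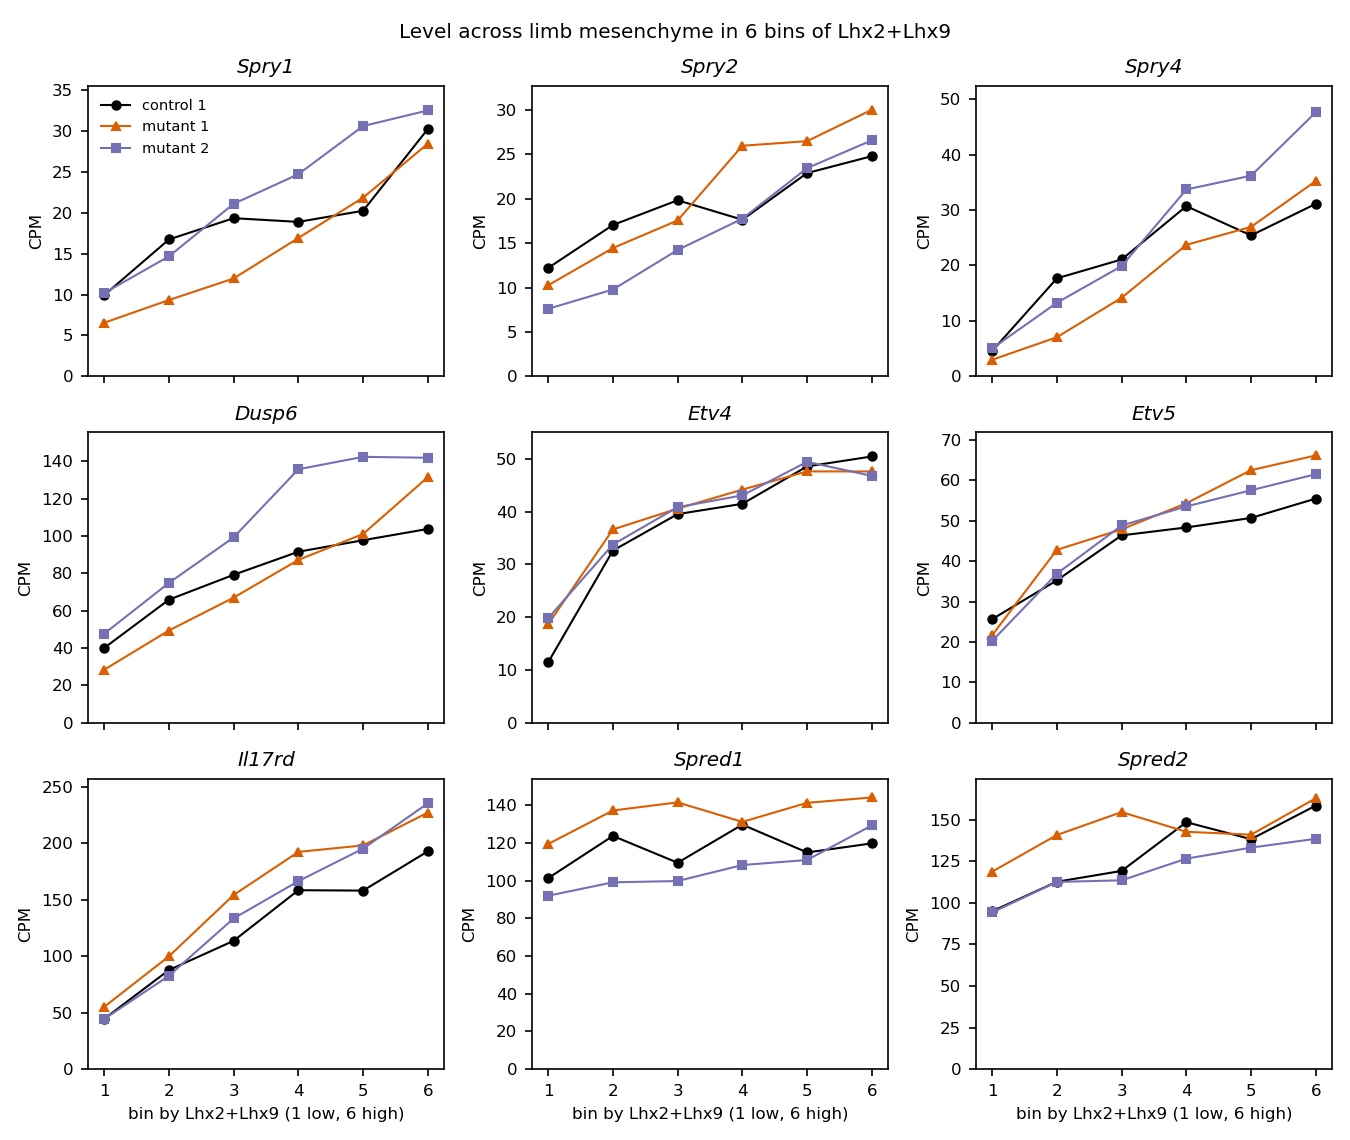
Level of each gene (y axis, CPM from 0) in 6 bins of mesenchyme cells ordered by their summed Lhx2 and Lhx9 level (x axis, 1 lowest and 6 highest), with a line per library. Spry4 rises 6.79 to 11.8 times from the first bin to the last in the 3 libraries, while Spred1 stays within 1.18 to 1.41 times.

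**Figure D3:**
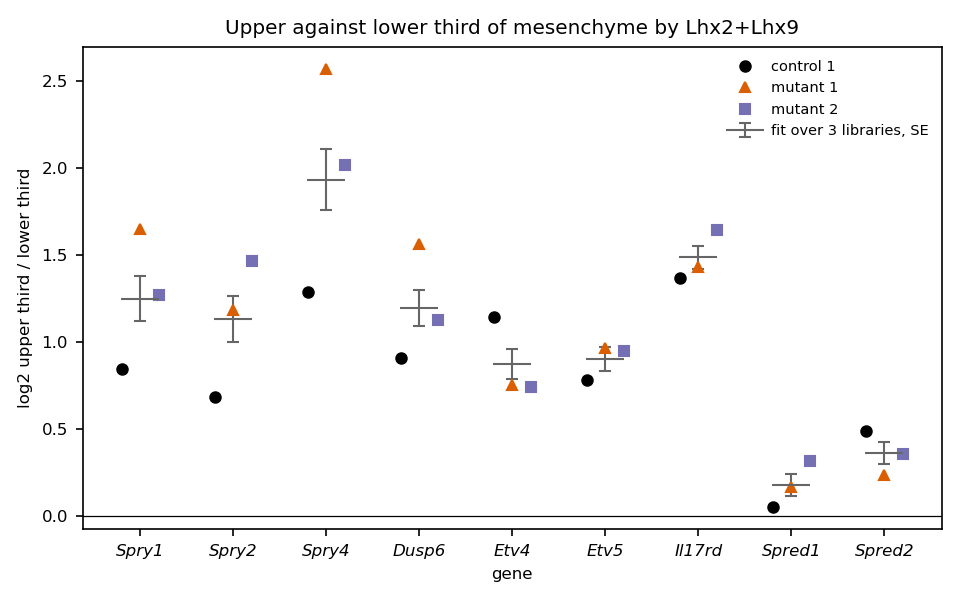
Log2 ratio of Lhx-high to Lhx-low mesenchyme cells (y axis) for each gene (x axis), per library (symbols) and from the edgeR fit over the 3 libraries (bars, with the standard error). All 27 values per library are above 0, and both mutants lie above the control in 7 of 9 genes, all but Etv4 and Spred2.

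Markers of neighbouring tissue moved with this order. The 6 flank markers summed to 35.7 to 64.7 CPM in Lhx-low cells and 6.47 to 8.62 CPM in Lhx-high cells, and the 5 coelomic markers to 12.7 to 17.4 and 0.417 to 1.18 CPM; Nkx2-3 of the first list and Msln of the second had no UMI in the mesenchyme of control 1 and mutant 2. The 8 surface ectoderm markers summed to 24.8 to 34.8 CPM in Lhx-low and to at most 8.26 CPM in Lhx-high cells, and the 5 myogenic markers to 50.4 to 72.5 and 24.4 to 44.0 CPM, and their part in the result was not tested. The 7 genes of the p53 program summed to 30.4, 345 and 289 CPM in Lhx-low cells and 14.3, 170 and 125 CPM in Lhx-high cells. Of 10 immediate early genes, which respond to dissociation, 2 were called higher and 3 lower, and their part was not tested either. Among cells with no UMI of a flank or coelomic marker (546, 610 and 1402 cells), 7 members were still called higher. In that fit 817 genes were called in either direction, against 2281 in the fit of all mesenchyme cells. How many of the 817 were higher was not counted. The selection of cells was not scaled to depth. The 7 members ran from 1.49 for Spry4 and 1.18 for Il17rd to 0.44 for Etv4, and Spred2 was not called (0.23, edgeR adjusted p = 0.347). With Lhx-high cells set against the second of 6 bins, which leaves out the cells lowest in Lhx2 and Lhx9, 8 members were called higher. The median over all 9 members was 0.91. In this fit 1493 genes were called in either direction, and how many of them were higher was not counted.

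The rest of the pathway did not rise as a whole along the same order. Of 2 FGF ligands tested, none was called, with Fgf10 at a log2 difference of -0.05. Of 7 receptors and co-receptors, Sdc1, a heparan sulphate co-receptor, was higher (0.52), and Fgfr2 (-1.03), Flrt2 (-1.57) and Flrt3 (-0.80) were lower, while Fgfr1 stood at 0.15 (edgeR adjusted p = 0.118). Of 22 relay genes, Rps6ka2 was higher (0.26) and Gab2 (-0.67), Rps6ka3 (-0.29) and Gab1 (-0.22) were lower. Of 14 other negative regulators, 4 were higher and none lower: the phosphatase genes Dusp5 (0.51) and Dusp7 (0.30) and the ubiquitin ligase genes Cblb (0.49) and Cbl (0.32). Dusp4, another ERK phosphatase gene, stood at 0.23 (adjusted p = 0.118).

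Among 17 other effectors and targets, 4 were higher and 8 lower. The higher ones were Msx1 (1.75), which is also 1 of the gate's markers, Mycn (0.81), Elk3 (0.80) and Msx2 (0.68). The lower ones ran from Tbx2 (-2.61), Tbx3 (-1.46) and Phlda1 (-1.07) through Spsb1 (-0.84), Ets1 (-0.83), Bmp4 (-0.68) and Etv1 (-0.37) to Myc (-0.33). Etv1, an ETS factor of the same subfamily as Etv4 and Etv5, thus moved opposite to them.

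Over the 18 bin sums, with levels centred per library, the members correlated with each other at Pearson r between 0.71 (Etv4 and Spred1) and 0.99 (Spry4 and Dusp6) in 36 pairs. These sums share cells, libraries and the ranking itself, so r is a description. The 5 other genes with the pattern most like the mean of the members were Zic2 (r = 0.989), Zbtb16 (0.987), Mecom (0.984), Usp36 (0.983) and Asb4 (0.981). Over the 15 sums of 5 classes in 3 libraries they were different genes: Sema3f (0.990), Slc38a1 (0.985), Adgrl2 (0.974), Rassf9 (0.974) and Thap4 (0.974).

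Between mutant and control, no member was called in limb mesenchyme. Il17rd stood at 118.0, 156.0 and 157.6 CPM in the mesenchyme of control 1, mutant 1 and mutant 2. Both mutants lay above the control and close together (log2 fold 0.41, SE 0.36, 95% interval -0.30 to 1.12, edgeR adjusted p = 1). Dusp6 stood at 76.7, 78.3 and 115.6 CPM, with mutant 1 at the control's level and mutant 2 above (0.34, SE 0.34, adjusted p = 1). Etv5 stood at 42.2, 49.5 and 49.9 CPM (0.24, SE 0.30) and Etv4 at 35.7, 39.4 and 41.5 CPM (0.18, SE 0.28), with both mutants slightly above the control in each.

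The Sprouty and Spred genes had the control between the mutants. Spry1 stood at 18.2, 16.0 and 24.1 CPM, Spry4 at 20.6, 18.7 and 29.1 CPM and Spry2 at 18.48, 20.96 and 18.03 CPM in control 1, mutant 1 and mutant 2. Spred1 stood at 117.1, 134.3 and 109.4 CPM and Spred2 at 125.9, 142.0 and 123.8 CPM. The mutants thus differed from each other by more than their mean differed from the control, and the log2 folds were 0.06 to 0.22.

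The edgeR fit called 0 of 9 members, 0 at an unadjusted p under 0.05, and DESeq2 called 0 too, where edgeR called 1.34% of all 10076 genes tested. The median log2 fold was 0.18 over the members and -0.006 over all genes. The fit has 1 residual degree of freedom and takes the lone control to vary like the mutants. In simulated data it recovered 38% of genes changed by a log2 fold of 1 and 99% of those changed by 2, so a change of the size seen here would mostly not be detectable. The mutants held more cells of the Lhx-high group, and with each group weighted the same in every library the median log2 fold was 0.05, with Il17rd at 0.25 and Spry4 at 0.05. Lhx2 (0.58) and Lhx9 (0.20) themselves were not called between genotypes (adjusted p = 1 for each).

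Of the other FGF genes in mesenchyme, 1 of 2 ligands rose: Fgf13, a member of the intracellular FGF subfamily that does not signal through FGF receptors, stood at 15.2, 32.5 and 26.7 CPM (log2 0.96, SE 0.27, edgeR adjusted p = 0.0339). Fgf10 stood at 180.7, 177.6 and 132.9 CPM (-0.22, adjusted p = 1). None of 7 receptors and co-receptors (Fgfr1 0.28, Fgfr2 -0.05), 22 relay genes and 14 other negative regulators (Dusp4 -0.15) was called. Of 17 other effectors and targets, Phlda1 fell, from 30.7 CPM in control 1 to 13.4 and 13.6 CPM in the mutants (-1.18, SE 0.26, adjusted p = 0.000962). This fit has 1 residual degree of freedom and drew each gene's spread wholly to a common trend, and with the prior degrees of freedom of the ectoderm fit no gene was called in this comparison, Fgf13, Phlda1 and the p53 program included.

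The p53 program moved strongly with genotype in the same cells: its 7 genes, all called higher, summed to 25.5, 307 and 237 CPM, and 4, 175 and 267 mesenchyme cells carried it. In those cells of mutant 1 and mutant 2, Spry1 stood at 11.2 and 19.2 CPM against 18 and 24.5 CPM in the other mesenchyme cells, and Dusp6 at 72.7 and 105.4 against 83.9 and 115.3 CPM. Etv4 was the reverse, at 52.3 and 47.9 against 38.5 and 39.7 CPM, and Il17rd stood at 167.4 and 171.5 against 162.0 and 152.7 CPM. Etv5, unlike Etv4, was lower in those cells, at 44.2 and 40.2 against 53.4 and 50.6 CPM. Spry2, Spry4 and Spred1 were also lower in both mutants, and Spred2 was lower in mutant 1 and higher in mutant 2. The 7 genes of the program were all called lower in Lhx-high than in Lhx-low cells. The part of Lhx level in these values was not tested. Of 10 immediate early genes, which respond to dissociation, 1 was called higher between genotypes, the p53 target Btg2, and the 14 genes of that list summed to 277, 304 and 334 CPM; their part in the members' values was not tested. Without the cells with the p53 program the median log2 fold of the members was 0.24 and none was called.

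**Figure D4:**
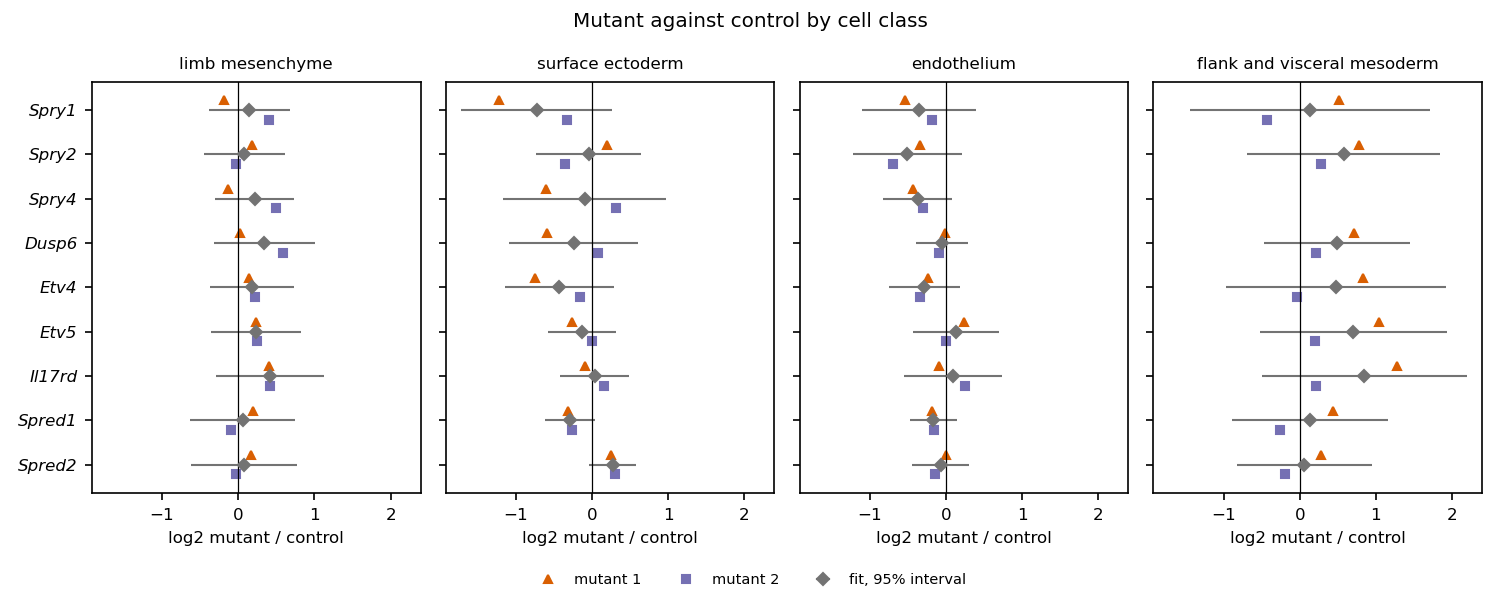
Log2 ratio of mutant to control (x axis) for each gene (y axis) in 4 cell classes, for mutant 1 and mutant 2 separately and from the edgeR fit with its 95% interval (grey). Every interval includes 0, and in mesenchyme Il17rd, at 0.41, is the highest fit; Spry4 was too low to be tested in flank mesoderm.

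Split by Lhx2 and Lhx9 level, no member was called in any group: in Lhx-low, Lhx-middle and Lhx-high cells edgeR called 0 of 9 members, and 0 at an unadjusted p under 0.05, where 0.782%, 1.7% and 2.2% of all genes were called. Folds above 0 numbered 4, 5 and 7 of 9, where 48.8%, 49.1% and 49.9% of all genes had a fold above 0. In Lhx-high cells Spry4 stood at 28.0, 30.9 and 42.4 CPM in control 1, mutant 1 and mutant 2 (log2 0.39, SE 0.23, adjusted p = 0.838). In Lhx-low cells it stood at 11.4, 5.22 and 10.4 CPM (-0.53, SE 0.35, adjusted p = 1.00). Both mutants were thus above the control in Lhx-high cells and below it in Lhx-low cells. Of the other FGF genes, Phlda1 (-1.16) and Msx2 (-1.29) were called lower in Lhx-low cells, Fgf13 (1.35) and Egr1 (1.32) higher and Phlda1 (-1.25) lower in Lhx-middle cells, and Ets1 (0.95) and Egr1 (1.18) higher in Lhx-high cells. Of 9 immediate early genes in Lhx-high cells, Btg2 (2.14), Fosb (0.94) and Egr1 were called higher and Jun (-1.23) lower. In Lhx-low cells Btg2 (2.91) and Fos (1.52) were higher. Each of these fits left 1 residual degree of freedom and drew each gene's spread wholly to a common trend, as in whole mesenchyme. Whether the calls within groups hold with another prior was not tested.

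The difference between Lhx-high and Lhx-low cells was therefore compared between genotypes with an interaction term. That log2 difference of Spry4 was 1.29 in control 1, 2.57 in mutant 1 and 2.02 in mutant 2, and that of Spry2 was 0.68, 1.18 and 1.47. In each gene both mutants exceeded the control. These 2 members were called steeper in the mutants, where 0.869% of 10121 genes were and 2.06% were called in either direction: Spry4 by 0.94 (SE 0.20, edgeR adjusted p = 0.000291) and Spry2 by 0.65 (SE 0.20, adjusted p = 0.0431). The other 7 members were not called, with Spry1 at 0.58 (adjusted p = 0.1145), Dusp6 at 0.42 (adjusted p = 0.197) and Etv4 at -0.40 (adjusted p = 0.351).

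Both calls depended on the settings. The fit has 1 residual degree of freedom, and the spread of each gene was drawn wholly to a common trend (infinite prior degrees of freedom); with the prior degrees of freedom of the fit of Lhx-high against Lhx-low cells, the adjusted p was 0.381 for Spry4 and 0.563 for Spry2, and DESeq2 called neither (adjusted p = 1). Among cells with no UMI of a flank or coelomic marker the values were 0.28 for Spry4 and -0.04 for Spry2 (SE 0.32 each), uncalled. That selection kept fewer cells and was not scaled to depth, so deep cells were more likely to be left out. The part of cells with such UMIs in the result was not tested further. Without the 19, 17 and 19 kept barcodes shared between pairs of libraries, Spry4 was called (0.87, adjusted p = 0.00228) and Spry2 was not (0.64, adjusted p = 0.0646). In all, Spry4 was called in 8 and Spry2 in 5 of 16 alternatives with a test. Of the other FGF genes, Phlda1 (0.79), Msx2 (0.73) and Msx1 (0.63) were also called steeper in the mutants, and of 10 immediate early genes Jun was less steep (-1.01).

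In surface ectoderm, no gene at all was called between mutant and control. Spry1 differed most among the members, at 53.9, 23.1 and 42.8 CPM in control 1, mutant 1 and mutant 2. Both mutants were below the control, mutant 1 by much more (log2 fold -0.73, SE 0.37, edgeR adjusted p = 0.583). Etv4 stood at 72.7, 43.2 and 65.2 CPM (-0.43, adjusted p = 0.6295) and Spred1 at 135.8, 109.0 and 112.9 CPM (-0.29, adjusted p = 0.542), again with both mutants below the control.

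Other members had mutant 1 low and mutant 2 at or above the control. Spry4 stood at 28.0, 18.4 and 34.8 CPM and Dusp6 at 26.4, 17.4 and 27.8 CPM. Etv5 stood at 65.7, 54.9 and 65.5 CPM and Il17rd at 51.6, 48.6 and 57.5 CPM. Spry2 was highest in mutant 1, at 53.7, 61.7 and 42.1 CPM, and Spred2 was higher in both mutants, at 151.8, 180.3 and 187.0 CPM (0.27, adjusted p = 0.546). In all, edgeR called 0 of 9 members and 0 of 10658 genes (0%), with 0 members and 993 genes at an unadjusted p under 0.05; DESeq2 called 21 genes and 0 members. With no filter on low counts, edgeR called 490 genes, and Spry1 was the 1 member among them, lower (-0.76, adjusted p = 0.00873). Over all gated ectoderm cells Fgf8, the ridge's signal to the mesenchyme, stood at 356.4, 364.1 and 394.8 CPM (0.09, edgeR adjusted p = 0.806). Ridge cells alone were not compared between genotypes.

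The mutant effect was set against itself in both tissues with a further interaction term. It was more positive in mesenchyme for 8 of 9 members, with a median of 0.35, and for 48.2% of all 10601 genes tested. Of the members 0 were called, where 1.3% of all genes were. At an unadjusted p under 0.05 there were 2 members and 495 genes. The largest was Spry1, at 0.87 (SE 0.27, edgeR adjusted p = 0.1005), followed by Etv4 at 0.62 (SE 0.29, adjusted p = 0.846). Of the other FGF genes, Phlda1 (-1.27) and Flrt2 (-1.10) were called lower in this contrast. Fgf9 (-1.57) was called lower too, but it was not among the 2 ligands that passed the count filter in mesenchyme alone. It entered this fit through its ectoderm sums, so its value rests on low mesenchyme counts. Its fit left 1 residual degree of freedom and drew each gene's spread wholly to a common trend. Whether these calls hold with another prior was not tested.

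In the other classes edgeR called no gene between mutant and control (0% in each): 0 of 9 members in endothelium, 0 of 8 in flank mesoderm and 0 of 2 in erythroid cells, with 676, 103 and 175 genes and 0 members at an unadjusted p under 0.05. In endothelium 6 members were lower than the control in both mutants, such as Spry4 at 23.7, 17.5 and 19.2 CPM (log2 -0.37, SE 0.15, adjusted p = 0.672) and Spry2 at 10.4, 8.20 and 6.37 CPM (-0.50, adjusted p = 0.672). In flank mesoderm all 8 fitted folds were above 0, with a median of 0.49, where 53.55% of all genes were above 0 with a median of 0.024. Mutant 1 was the high library, as for Il17rd at 20.3, 49.3 and 23.6 CPM (0.85, SE 0.53, adjusted p = 1.00). Only 4 of the 8 were above the control in both mutants. The other 4, Spry1, Etv4, Spred1 and Spred2, had mutant 2 below the control.

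Cells with a UMI of a member were also counted at an equal depth. Cells were thinned to 10000 UMIs, which left 748, 973 and 1881 mesenchyme cells. An Il17rd UMI was then found in 46.9%, 66.7% and 68.5% of mesenchyme cells of control 1, mutant 1 and mutant 2, and a Spry4 UMI in 14.4%, 16.5% and 23.0%. Without thinning these shares were 68.7%, 89.9% and 91.5% for Il17rd and 37.2%, 41.8% and 55.3% for Spry4, where a cell had a median of 41940, 39485 and 54637 UMIs. Erythroid cells should lack both genes, and their thinned shares were 1.02% to 2.01% for Il17rd and 0.167% to 0.451% for Spry4, with medians before thinning of 98167, 66419 and 61342 UMIs.

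A mesenchyme cell had UMIs of 2.95, 3.80 and 3.85 members on average, and 57.5%, 79.5% and 78.3% of cells had at least 3. Mutant libraries were above the control in mesenchyme, while in ectoderm the means were 3.72, 3.36 and 4.00 members, with the control between the mutants. The mutants also held more Lhx-high cells (24.4%, 30.2% and 39.0% of mesenchyme in control 1, mutant 1 and mutant 2). Neither the shares nor the means were weighted by Lhx group, and the part of this difference in them was not tested. Endothelial cells had 2.31, 2.13 and 2.15 members and erythroid cells 0.231, 0.266 and 0.280. With 1 control library these shares carry no test, since an exact permutation of 1 against 2 libraries cannot give a p below 0.333.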

How the data were processed

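The deposited files hold UMI counts per gene and barcode for 3 libraries of 202581488, 178159788 and 225032823 UMIs (10x 3′ v3). They were made with Cell Ranger 7.0.0, per the file headers, on mm10, per the submitters' processing notes, which also name Seurat 4.0.0 without its role. Barcodes with at least 500 genes, under 10% mitochondrial UMIs and no Scrublet doublet call were kept (Python 3.11.15, scanpy 1.11.5). Cells were gated by markers and UMIs summed per class and library. Sums were fitted with edgeR 4.0.16 (R 4.3.3; TMM, quasi-likelihood, 5 CPM on average as the minimum), with DESeq2 1.42.0 as an alternative, and p-values were adjusted over all genes by Benjamini and Hochberg, with 0.05 as the threshold. CPM beside a test carry TMM factors; class means do not. Scripts were tested on simulated data.

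The members and gene lists were chosen with earlier results of these data known. All members were named, with genes of the other FGF lists where called in a comparison by Lhx level, ridge or genotype (between classes by count) and those that stand for their role (Fgf10, Fgf8, Fgfr1, Fgfr2, Dusp4; 1 further gene of that rule is not reported here), and the 5 genes most like the members by Pearson correlation. Exact permutation of 1 against 2 libraries cannot go below p = 0.333. Intervals cover counting error only for shares of cells. Alternatives covered the normalization, count filters, cell filters, gates, bins, libraries left out and cells left out.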

Additional observations from a re-analysis of the deposited data

Results flagged for a closer look

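In 2 members the log2 difference between the mesenchyme cells highest and lowest in Lhx2 and Lhx9 differed between mutant and control by an interaction term. For Spry4 the difference was 0.943 larger in the mutants (edgeR adjusted p = 0.000291), with 2 of 2 mutants above the control. For Spry2 it was 0.654 larger (edgeR adjusted p = 0.0431), also in 2 of 2 mutants. The level of Spry4 in control 1 was below both mutants in the Lhx-high cells and above both in the Lhx-low cells. The p53 program and the share of Lhx-high cells moved with genotype in the same cells. Their part in these differences was not tested beyond leaving out the cells that carry the program. Of 16 alternatives with a test, Spry4 was called in 8 and Spry2 in 5. Without the cells that carry the program the values were 0.99 for Spry4 and 0.71 for Spry2, both called. Among cells with no UMI of a flank or coelomic marker they were 0.28 and -0.04 (SE 0.32 each), a selection not scaled to depth. With the other prior degrees of freedom the edgeR adjusted p was 0.381 and 0.563, and by DESeq2 it was 1 for both. None of these settings called either gene.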

How the results depend on the processing

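With 1 control and 2 mutant libraries, simulated genotype changes of log2 1 in mesenchyme were recovered in 38% of genes. No paired analysis was possible because the labels give the control and mutant libraries no shared replicate numbers. Of 1178 values under 22 alternative settings, 1050 were rated the same, 29 lost a call, 8 gained one, 68 moved and 23 changed sign. A tested fold was the same if it kept its direction and call. A fold without a test, or a median, was the same if it kept its sign and shifted within the standard error. A count was the same if equal or within a fixed factor. The cause was not tested except where the setting leaves out genes, cells or libraries.

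Between mutant and control in mesenchyme, 135 genes were called, and 61 by DESeq2, 351 with a filter at 1 CPM, 607 with no filter, 220 with cells of at least 2000 genes and under 5% mitochondrial UMIs, 43 without p53-program cells, 55 with thinned cells and 0 with the prior degrees of freedom of the ectoderm fit. In ectoderm 0 genes were called, and 21 by DESeq2, 490 with no filter (1 member, lower) and 4 with thinned cells. With a mutant left out, Spry1 ranged from -0.185 (without mutant 2) to 0.406 Spry4 from -0.136 (without mutant 2) to 0.499, Spry2 from -0.0349 (without mutant 1) to 0.182, Spred1 from -0.0975 (without mutant 1) to 0.198 and Spred2 from -0.0239 (without mutant 1) to 0.174 in mesenchyme, where Spry2 was -0.0325 with each Lhx group weighted the same; in ectoderm Spry4 ranged from -0.605 to 0.324 (without mutant 1) Dusp6 from -0.602 to 0.0866 (without mutant 1), Spry2 from -0.341 to 0.199 (without mutant 2), Etv5 from -0.26 to 0.00446 (without mutant 1) and Il17rd from -0.0866 (without mutant 2) to 0.167. The ectoderm median ranged from -0.318 to 0.00446 (without mutant 1). Spry4 reversed to 0.31 there with thinned cells, Spry2 was 0.0384 with no scaling and Il17rd -0.00226 with the stricter gate.

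Between Lhx-high and Lhx-low cells, 2281 genes were called, and 1463 by DESeq2, 3690 with no filter, 1292 with thinned cells, 1493 (without mutant 1) to 2379 with a library left out, 817 without cells with flank or coelomic UMIs and 1493 against the second of 6 bins. The members' median of 1.13 was 1.04 with thinned cells, 0.8 with 2 groups, 1.53 between the outer 2 of 6 bins, 0.952 without cells with flank or coelomic UMIs, 0.913 against the second bin and 0.945 to 1.31 with a library left out.

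Against mesenchyme, 4 members were called higher in ectoderm, and 1 without control 1 and 2 without mutant 2; Spred1 ranged from -0.244 to 0.0205 (without mutant 1) with a library left out. In endothelium Spry4 was -0.142 with no scaling and -0.167 (without control 1) to 0.22 with a library left out, with -0.00874 without mutant 1. The endothelium median was -0.732 with thinned cells and -1.26 (without control 1) to -0.898 with a library left out, and the erythroid median was -5.81 with no scaling, -3.81 with thinned cells and -4.73 to -4.17 (without control 1) with a library left out. In flank mesoderm 3227 genes were called, and 1643 (without mutant 2), 1780 (without control 1) and 2200 (without mutant 1) with a library left out; the members' median was -1.97 (without mutant 1) to -1.45.

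For the interaction with genotype, 2 members were called, and 1 with no scaling, with cells of at least 10000 UMIs and without shared barcodes, and 0 by DESeq2, with the stricter cell filter, the stricter gate, thinned cells, the outer 2 of 6 bins, Lhx9 alone, no cells with flank or coelomic UMIs, or the other prior. Of all genes 208 were called, and 9 by DESeq2, 333 at 1 CPM, 340 with no filter, 23 with the stricter cell filter, 17 thinned, 110 with the outer bins, 95 without cells with flank or coelomic UMIs and 15 with the other prior. The median was 0.0195 without cells with flank or coelomic UMIs, where Spry2 reversed to -0.0444. Reversed too were Il17rd (-0.173) and Spred1 (-0.0754) with thinned cells and Il17rd (-0.0224) with 2 groups.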
